A study of Homo sapiens with 12 samples.

Results

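Genes of the interstitial matrix, the collagen-rich material between cells, were followed in HCCLM3, a human hepatocellular carcinoma line, and in LX2, a human hepatic stellate cell line. The set holds 34 genes, taken by symbol from a list of collagen chains, lysyl oxidases, proteoglycans, elastic fibre proteins and adhesive glycoproteins, and the row with the most counts was used where rows shared a symbol. All 34 were found among the 60612 genes of the HCCLM3 table and 32 among the 32507 genes of the LX2 table, and THBS2 and MFAP5 were analysed in the HCCLM3 table only. The study grew each line in a tumor-on-a-chip, a small device for culturing tumour cells, and sequenced poly(A) RNA from 4 groups of 3 libraries. The groups were HCCLM3 cultured with LX2, HCCLM3 cultured alone, LX2 cultured with HCCLM3, and LX2 cultured alone. All were labelled wild type, HCCLM3 as hepatoma cells and LX2 as hepatic stellate cells, and no agent was named. Each line is a single established line, and whether its 3 libraries came from separate chips is not stated. Every p-value therefore reflects only how far these 3 libraries differ, a spread that may be technical. The sources used here do not say how the 2 lines were separated for RNA extraction.

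Stellate cells are the main source of scar matrix in the liver. Collagen chains are folded in the endoplasmic reticulum as trimers, secreted as procollagens, trimmed at their ends and assembled into fibrils, which lysyl oxidases then crosslink. Fibronectin is laid down early and serves as a scaffold for collagen and microfibrils, proteoglycans space the fibrils, and matricellular proteins such as thrombospondins and tenascins change how cells hold on to them.

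Total counts ran from 61836616 to 77712308 per library, and 3 counts, the limit that a count of 0 allows, corresponded to 0.0386 to 0.0485 CPM, a count scaled to its library total (counting error only). Among low counts, multiples of 4 were more frequent than the counts next to them (6919 values of 4 against 2239 of 3 and 1368 of 5 in the HCCLM3 table). A count may therefore not stand for a single read, and these limits may be too low. The stellate label was borne out by part of the marker genes. In LX2 alone the intermediate filament gene VIM reached 176 FPKM (fragments per kilobase of transcript, scaled for depth). PDGFRB, a stellate cell receptor, reached 2.38 FPKM. Of 29 fibroblast and stellate markers outside the set, 22 had counts in LX2 alone and 8 reached 1 FPKM. Without VIM the list summed to 534, 473 and 465 CPM in LX2 alone, against 6.27, 5.54 and 10.7 CPM in HCCLM3 alone. However, DES, another stellate filament gene, had 8, 26 and 0 counts in LX2 alone. The 7 markers with no counts in LX2 alone, or missing from its table, were SFRP4, OGN, ASPN, FMOD, LRAT, HAND2 and RELN. COL1A2, SPARC, BGN and POSTN of the set had none there. HCCLM3 with LX2 carried blood cell transcripts: 14 erythroid genes summed to 9183, 6613 and 7797 counts in HCCLM3 with LX2, against 0, 6 and 4 in HCCLM3 alone, and 15 granulocyte and monocyte genes to 2052, 1699 and 1685, against 183, 116 and 158. Their part in the matrix results was not tested. Of 8 epithelial markers, KRT19, CEACAM6, AGR2 and CDH17 had counts in every library of LX2 with HCCLM3 and none in LX2 alone. The other 4 had counts in LX2 alone. All 8 summed to 159, 166 and 163 CPM in LX2 with HCCLM3, against 162, 167 and 167 CPM in LX2 alone.

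Promoters of 22 of the 34 genes could be read from the RefSeq table (GRCh38.p14), each from 250 bases before to 50 after the transcription start. The 4 shown belong to LOX, LOXL1, FN1 and THBS1, the genes that passed the test upward in HCCLM3 in every setting tried. Capitals mark the letters ACGTG or GCGTG (the core of the hypoxia response element), CAGAC (a SMAD binding element), TGANTCA (AP-1) and TATAAA, each on either strand.
LOX, chr5:122078210-122078509, minus strand: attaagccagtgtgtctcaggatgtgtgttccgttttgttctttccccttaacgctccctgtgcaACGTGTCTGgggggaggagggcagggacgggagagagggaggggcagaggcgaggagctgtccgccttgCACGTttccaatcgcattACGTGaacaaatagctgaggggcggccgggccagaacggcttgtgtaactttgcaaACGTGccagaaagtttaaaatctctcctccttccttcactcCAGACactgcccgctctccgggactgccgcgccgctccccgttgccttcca
LOXL1, chr15:73926212-73926511, plus strand: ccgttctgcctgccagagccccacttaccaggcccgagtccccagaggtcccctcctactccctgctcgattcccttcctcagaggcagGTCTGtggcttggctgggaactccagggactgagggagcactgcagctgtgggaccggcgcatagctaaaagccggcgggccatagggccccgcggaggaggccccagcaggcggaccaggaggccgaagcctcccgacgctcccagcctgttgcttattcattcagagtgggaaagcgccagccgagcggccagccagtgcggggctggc
FN1, chr2:215436019-215436318, minus strand: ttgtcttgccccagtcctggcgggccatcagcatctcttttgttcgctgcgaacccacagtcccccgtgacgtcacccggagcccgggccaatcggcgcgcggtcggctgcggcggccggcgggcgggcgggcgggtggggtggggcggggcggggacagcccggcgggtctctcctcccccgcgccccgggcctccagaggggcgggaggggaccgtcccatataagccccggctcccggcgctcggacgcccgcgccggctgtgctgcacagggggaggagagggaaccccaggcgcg
THBS1, chr15:39580829-39581128, plus strand: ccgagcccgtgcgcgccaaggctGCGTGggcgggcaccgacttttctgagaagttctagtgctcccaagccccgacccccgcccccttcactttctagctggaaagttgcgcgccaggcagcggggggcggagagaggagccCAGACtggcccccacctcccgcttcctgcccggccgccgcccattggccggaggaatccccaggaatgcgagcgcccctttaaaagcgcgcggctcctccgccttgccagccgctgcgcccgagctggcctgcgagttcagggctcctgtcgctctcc
The LOX window held 4 hypoxia element cores and 2 SMAD elements, and the first core, at position 66 from the 5′ end, shared 1 base with the SMAD element at position 70. LOXL1 held 1 SMAD element, THBS1 held 1 of each, and FN1 held neither. Across the 35116 promoters of the table, 48.4% held the hypoxia core, 45.3% the SMAD element, 7.71% the AP-1 letters and 11.5% the TATA letters. The same letters were found for 11, 14, 2 and 5 of the 22 genes, counting a gene if any of its listed starts had them. A match is a description of the letters and not a site.

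Both lines expressed matrix genes strongly, with different leading genes. Summed over the set, FPKM reached 470 ± 44.2 in HCCLM3 with LX2 and 274 ± 20.5 in HCCLM3 alone, and 479 ± 7.97 in LX2 with HCCLM3 and 533 ± 11.3 in LX2 alone (SD, n = 3 each). Fibronectin (FN1) supplied 49.2% of the sum in HCCLM3 with LX2 and 31.9% in HCCLM3 alone. In LX2 the leading genes were COL7A1, which encodes the anchoring fibril collagen, with 20.4% of the sum in co-culture, and LOXL2, a lysyl oxidase, with 26.9% in LX2 alone. At 1 FPKM or more stood 15 genes in HCCLM3 with LX2, 13 in HCCLM3 alone, 17 in LX2 with HCCLM3 and 20 in LX2 alone. Relative to LX2 alone replicate 1, counts per FPKM followed the library totals in both tables (1.19 against 1.19 for HCCLM3 alone replicate 1). Levels were not tested between lines and are set side by side only as a description.

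**Figure D1:**
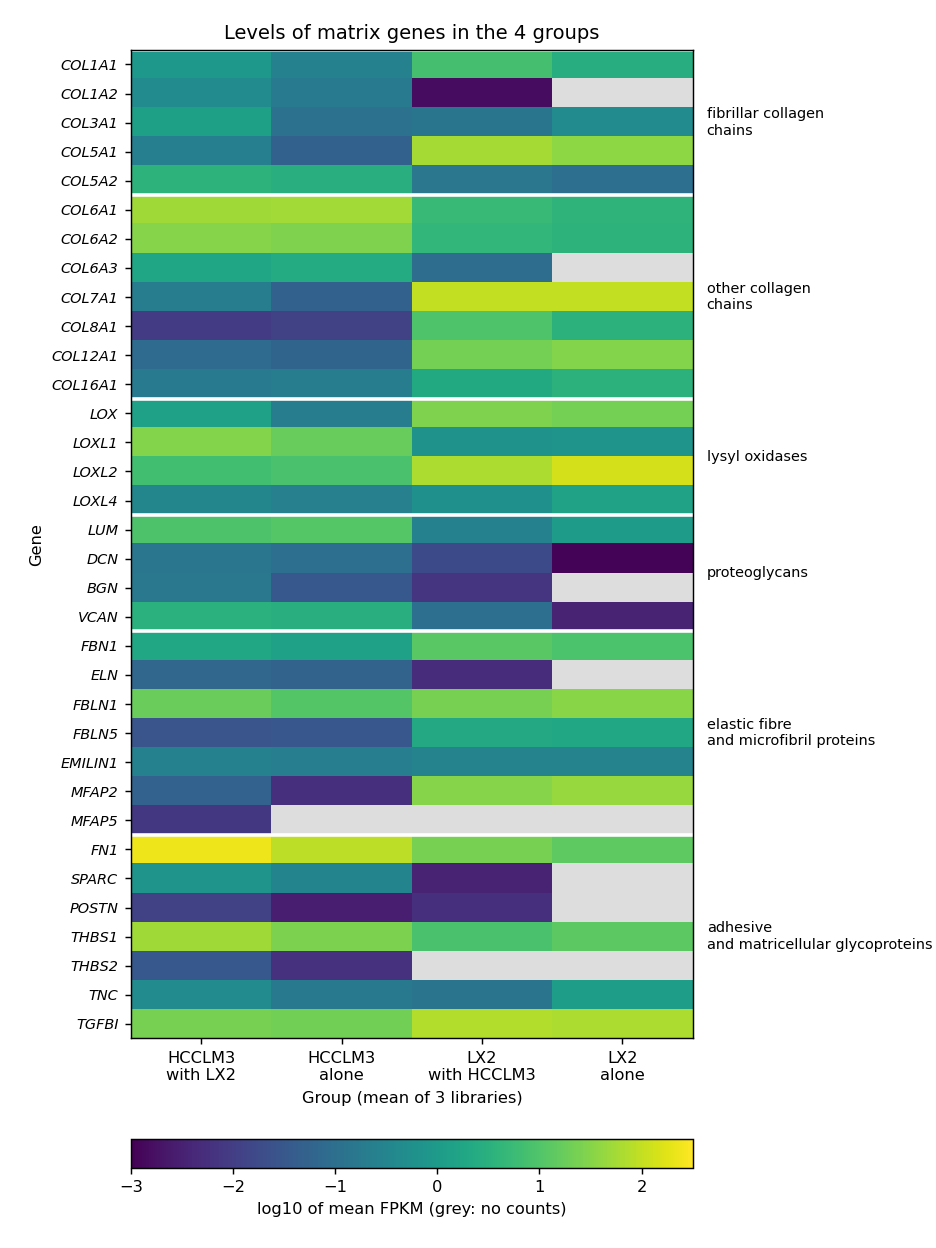
Mean FPKM of the 34 genes (rows, by role) in the 4 groups (columns, 3 libraries each) on a log10 colour scale. Grey marks genes with no count in any library of the group and genes missing from the LX2 table. FN1 and COL6A1 are bright in HCCLM3, and COL7A1, LOXL2 and TGFBI are bright in LX2. In LX2 alone 6 genes are grey for want of counts, and THBS2 and MFAP5, missing from the LX2 table, are grey in both LX2 columns.

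In HCCLM3, the matrix genes that passed the test were mostly higher in co-culture. LOX, FN1, LOXL1, THBS1, COL3A1, FBLN1 and COL7A1 rose and LOXL2 fell, with log2 fold changes between 0.57 and 3.30 for the rises. That is 7 up and 1 down of 31 tested genes (edgeR, adjusted p under 0.05), or 22.6% up, 3.23% down and 25.8% in either direction. Over the 18045 genes tested the shares were 10.1% up, 11.6% down and 21.7% in either direction, the last near that of the members. A further 23 members did not pass, and COL8A1, POSTN and MFAP5 had too few counts to be tested. The median log2 fold change was 0.39 over the 31 genes and 0.03 over all genes tested. With library totals as the only scaling, 2977 of all genes passed upward and 1039 downward, and of the members 7 and 0. LOX, FN1, LOXL1, THBS1 and COL3A1 kept their call whichever library was left out. In bulk libraries, fewer cells of a type and less RNA per cell cannot be told apart. In the same libraries 8 epithelial markers, led by KRT8, summed to 4664, 5307 and 5517 CPM in HCCLM3 with LX2, against 8791, 8038 and 8498 CPM alone. A list of 10 endothelial markers, led by ESAM, summed to 70.0, 76.6 and 74.6 CPM in HCCLM3 with LX2, against 167, 138 and 146 CPM alone, with CDH5, TIE1, EMCN and ERG at 0 in both groups. Their part in the matrix results was not tested.

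In LX2, matrix genes changed in both directions. COL6A3, VCAN, COL1A1, FN1, COL5A1, COL6A1, FBN1 and LOX rose, and TNC, LUM, COL3A1, LOXL4, LOXL2, COL16A1, THBS1, FBLN1, MFAP2 and COL12A1 fell. That is 8 up and 10 down of 26 tested genes, beside 15.4% up, 16.6% down and 31.9% in either direction over the 19671 genes tested (edgeR, adjusted p under 0.05). The median log2 fold change was 0.04 over the 26 genes and 0.01 over all genes tested. Every call but that of LOX was kept whichever library was left out. Of 10 osteoblast markers, the 8 in the LX2 table, led by ALPL, summed to 362, 365 and 368 CPM in LX2 with HCCLM3, against 90.4, 89.6 and 97.1 CPM alone. SP7, a defining osteoblast factor, had 0, 8 and 8 counts in LX2 with HCCLM3 and 0 in every library alone, and DMP1 had 0 in every library with HCCLM3 and 4, 0 and 0 alone. Their part in the matrix results was not tested.

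**Figure D2:**
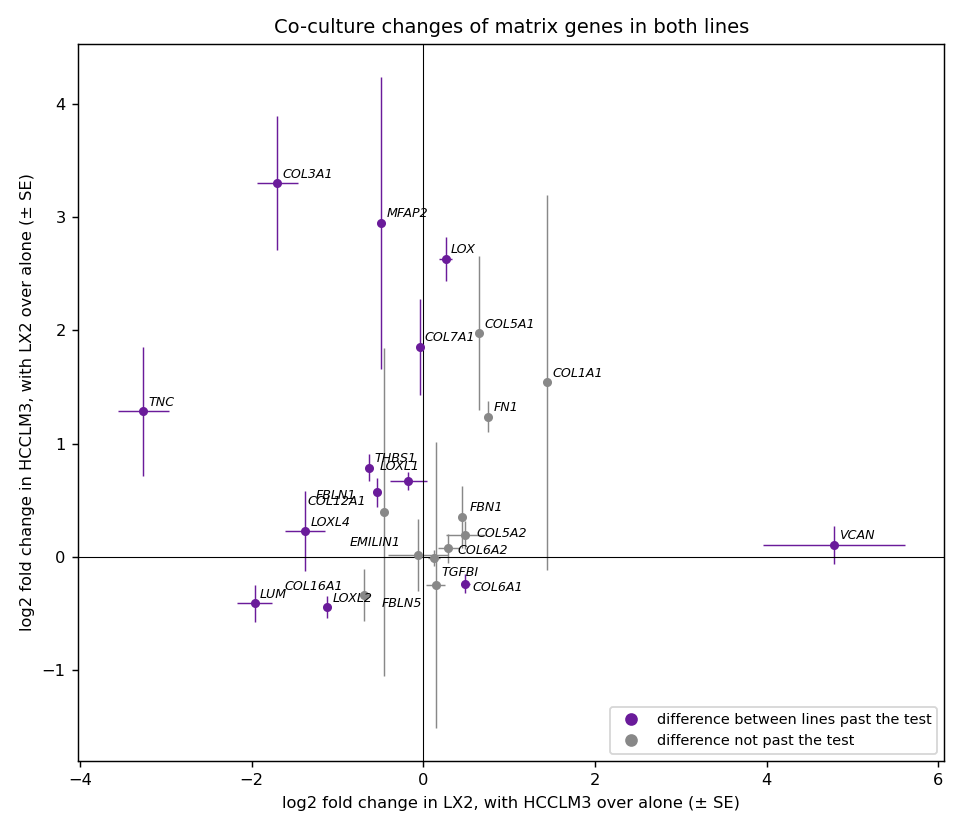
Log2 fold change of co-culture over alone (± SE) in LX2 (horizontal axis) and HCCLM3 (vertical axis) for genes tested in both lines, with COL6A3 left out because it had no counts in LX2 alone. Purple marks genes whose changes differed between the lines: TNC, COL3A1, THBS1 and FBLN1 lie at upper left, VCAN at far right, and FN1, grey, is positive on both axes.

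The change itself differed between the lines for 14 of 31 tested genes, 11 of them more positive in HCCLM3 and 3 more positive in LX2, beside 9.65% and 11.5% of the 21511 genes tested and 21.2% in either direction (edgeR interaction term, adjusted p under 0.05). THBS1, FBLN1 and COL3A1 rose in HCCLM3 and fell in LX2. FN1 rose in both lines, and its difference of 0.45 ± 0.15 (SE) on the log2 scale did not pass (edgeR adjusted p = 0.0539).

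Fibrillar collagens form the tensile fibres of the matrix, and partner chains differed in level for type V collagen in both lines and for type I collagen in LX2. Type I collagen is usually built from COL1A1 and COL1A2 chains, and type V from COL5A1 and COL5A2. In LX2 the leading fibrillar chain was COL5A1, with 58.1 ± 0.480 FPKM in co-culture and 36.2 ± 0.441 FPKM alone, while its partner COL5A2 had 0.150 ± 0.0180 and 0.104 ± 0.0184 FPKM (SD, n = 3 each). HCCLM3 showed the opposite order, with COL5A2 at 3.64 ± 0.296 FPKM in co-culture and 2.84 ± 0.430 FPKM alone, and COL5A1 at 0.231 ± 0.159 and 0.0521 ± 0.0301 FPKM.

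Of the 5 fibrillar chains of the set, COL1A1 had the largest fold rise in LX2. It had 5152, 5443 and 5881 counts in LX2 with HCCLM3, against 1938, 1812 and 1875 in LX2 alone. The groups were far apart, and the rise was 2.72-fold (log2 fold change 1.44 ± 0.04 SE, edgeR adjusted p = 4.86e-06). COL1A2 had 4, 0 and 0 counts in LX2 with HCCLM3, against 0 in all 3 libraries of LX2 alone, too few to be tested. COL5A1 had 49169, 53093 and 54421 counts in LX2 with HCCLM3, against 31139, 30083 and 31386 alone, again with no overlap (1.57-fold higher, log2 0.65 ± 0.02, edgeR adjusted p = 5.09e-06). COL5A2 had 73, 98 and 97 counts in co-culture, against 50, 68 and 58 alone, and did not pass (log2 0.49 ± 0.22, edgeR adjusted p = 0.148).

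COL3A1, the chain of type III collagen, moved in opposite directions. It had 300, 848 and 1011 counts in HCCLM3 with LX2, against 58, 39 and 112 alone, and 86, 60 and 85 counts in LX2 with HCCLM3, against 202, 282 and 214 alone. Every co-cultured HCCLM3 library stood above the libraries alone, and every co-cultured LX2 library below them. The log2 fold change was 3.30 ± 0.59 in HCCLM3 (edgeR adjusted p = 0.0106; 1.01 with adjusted p = 0.0539 in limma on log2(FPKM + 1) without a filter) and -1.70 ± 0.24 in LX2 (edgeR adjusted p = 0.0026), a difference of 4.97 ± 0.70 (edgeR adjusted p = 0.000529). Replicate 3 was the highest library of both HCCLM3 groups, and without HCCLM3 alone replicate 3 the HCCLM3 value was 3.89. The HCCLM3 rise was 1.20 FPKM, beside a COL3A1 level of 0.450 FPKM in LX2 alone. Levels were not tested between lines, nor was the share of LX2 transcripts in the rise.

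The remaining fibrillar chains did not pass in HCCLM3, and COL1A1, COL1A2 and COL5A1 were uneven among its libraries. COL1A1 had 21, 356 and 1448 counts in HCCLM3 with LX2, against 16, 20 and 541 alone. COL1A2 had 0, 320 and 853 counts in HCCLM3 with LX2, against 0, 0 and 502 alone. COL5A1 had 61, 219 and 345 counts in co-culture, against 26, 49 and 77 alone. In both groups replicate 3 was the highest for these 3 genes, and for COL1A1 and COL1A2 replicate 3 of HCCLM3 alone exceeded the 2 lower co-cultured libraries. Neither COL1A1 (log2 1.54 ± 1.65, edgeR adjusted p = 0.556) nor COL1A2 (1.09 ± 2.17, edgeR adjusted p = 0.764) passed, and COL5A1 missed the threshold (1.97 ± 0.68, edgeR adjusted p = 0.0827) but passed without replicate 1 of HCCLM3 with LX2 (edgeR adjusted p = 0.0378) and in DESeq2 (adjusted p = 0.0121). COL5A2, with 1903, 2254 and 2242 counts in co-culture and 1785, 2206 and 1519 alone, gave 0.19 ± 0.13 (edgeR adjusted p = 0.332).

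Replicate 3 was also the highest library of both HCCLM3 groups for COL3A1, SPARC, BGN, COL12A1, DCN, TNC, THBS2, ELN and POSTN. Of these, only COL3A1 passed the test in HCCLM3. The pattern did not hold for every matrix gene. LUM and FBLN1 were lowest in replicate 3 of HCCLM3 alone, while LUM was highest in replicate 3 of HCCLM3 with LX2. SPARC, a collagen-binding glycoprotein, had 42, 146 and 610 counts in HCCLM3 with LX2, against 93, 88 and 191 alone. BGN, a small proteoglycan, had 0, 31 and 60 counts in co-culture, against 0, 0 and 19 alone. COL12A1, a fibril-associated collagen, had 12, 44 and 200 counts in co-culture, against 0, 46 and 137 alone. SPARC, BGN and COL12A1 did not pass (edgeR adjusted p = 0.452, 0.468 and 0.872), and for each the groups overlapped. A list of 28 fibroblast and stellate markers outside the set, without VIM, summed to 865, 1104 and 1553 counts in HCCLM3 with LX2, against 487, 422 and 730 alone, with counts for 14 to 24 and 10 to 14 of its genes. In that list DES and HAND2 were at 0 in all 6 libraries, and PDGFRA had 0, 33 and 26 counts in co-culture and 0, 0 and 71 alone. The part of such cells in the collagen values was not tested. Without replicate 3 of HCCLM3 with LX2 the log2 fold changes of COL1A1, COL1A2, SPARC and COL12A1 were -0.19, -0.24, -0.49 and -1.24.

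**Figure D3:**
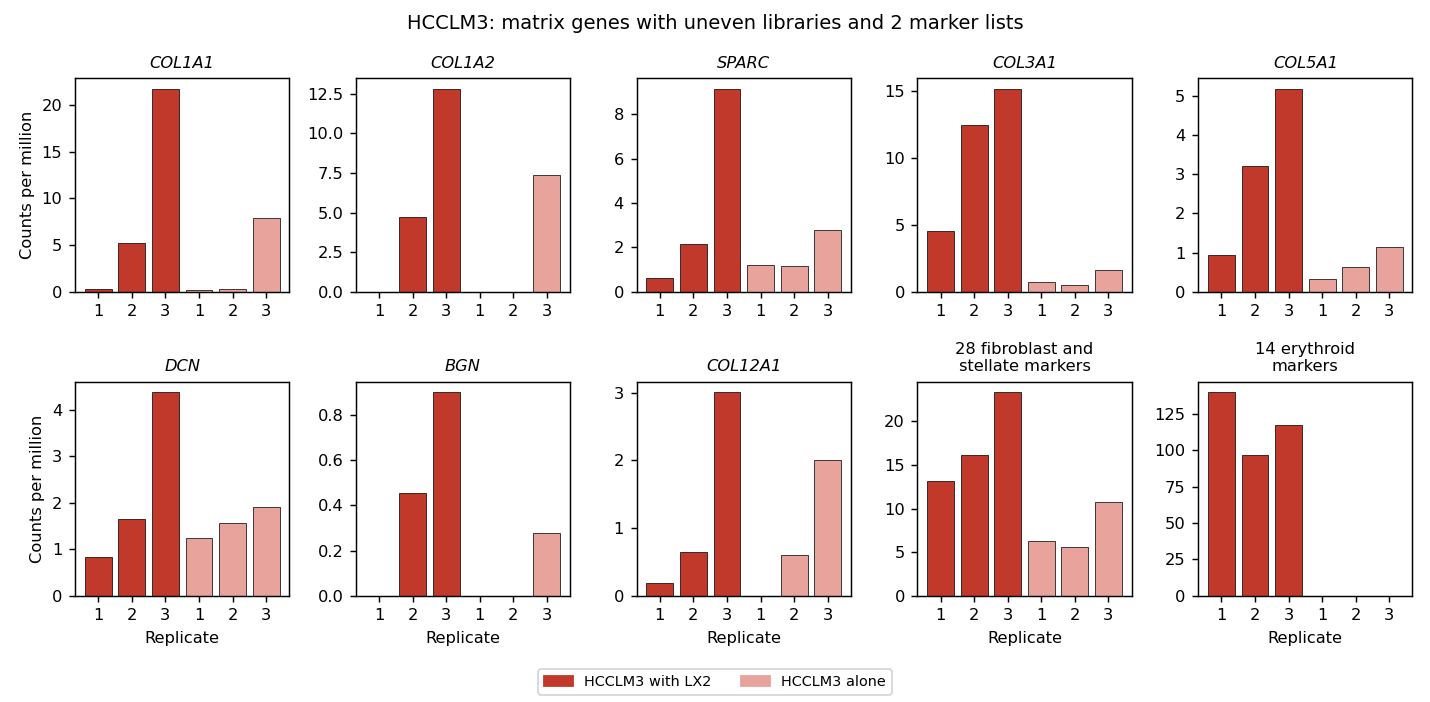
CPM in each HCCLM3 library, with LX2 (left 3 bars) and alone (right 3 bars), for 8 matrix genes with uneven libraries and for the summed fibroblast and stellate markers and erythroid markers. Replicate 3 is the tallest bar of each group for all 8 genes and for the fibroblast and stellate markers, whereas erythroid markers are present in all co-cultured libraries and near 0 alone.

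Type VI collagen, a microfibrillar collagen built from COL6A1, COL6A2 and a further chain such as COL6A3, was the leading collagen of HCCLM3. COL6A1 stood at 51.3 ± 5.33 FPKM in HCCLM3 with LX2 and 53.8 ± 1.82 FPKM alone, COL6A2 at 31.6 ± 5.97 and 26.8 ± 0.812 FPKM, and COL6A3 at 1.83 ± 0.462 and 2.40 ± 0.369 FPKM (SD, n = 3 each). None passed the test in HCCLM3: COL6A1 gave -0.24 ± 0.08 (edgeR adjusted p = 0.079), COL6A2 0.07 ± 0.13 (edgeR adjusted p = 0.726) and COL6A3 -0.55 ± 0.19 (edgeR adjusted p = 0.083). COL6A1 and COL6A3 passed without replicate 2 of HCCLM3 with LX2 (edgeR adjusted p = 0.0460 and 0.0474), and COL6A3 also in DESeq2 (adjusted p = 0.0269).

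In LX2 the type VI chains were lower. COL6A3 had 160, 134 and 153 counts in LX2 with HCCLM3, against 0 in every library alone, which is at least 141-fold higher against a limit of 3 counts over the group. COL6A1 had 2125, 2345 and 2336 counts in co-culture, against 1521, 1425 and 1554 alone, with no overlap (1.41-fold higher, log2 0.49 ± 0.05, edgeR adjusted p = 0.000686). COL6A2 had 1746, 1745 and 2256 counts in co-culture, against 1433, 1258 and 1678 alone. Scaled to library totals, replicate 3 alone stood above replicate 2 in co-culture, so the groups overlapped. COL6A2 did not pass (0.29 ± 0.12, edgeR adjusted p = 0.128). All 3 chains had higher levels in HCCLM3, and their gains in LX2 amounted to 3.94%, 2.98% and 3.29% of the level in HCCLM3 alone for COL6A3, COL6A1 and COL6A2. For comparison, 57 genes outside the set with at least 20 FPKM in HCCLM3 alone and under 0.1 FPKM in LX2 alone gained a median of 0.558% and at most 3.12% of the HCCLM3 level. The type VI chains did not meet these limits: COL6A1 and COL6A2 stood at 3.69 and 3.56 FPKM in LX2 alone, and COL6A3 at 2.40 FPKM in HCCLM3 alone. How much of each gain came from HCCLM3 transcripts was not tested. The co-culture effect differed between the lines for COL6A1 (-0.76 ± 0.09, edgeR adjusted p = 0.000114) and COL6A3 (edgeR adjusted p = 4.7e-06), though COL6A3 did not pass in limma on log2(FPKM + 1) (adjusted p = 0.0888).

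The other collagens were mainly LX2 genes. COL7A1 had 81917, 88014 and 91356 counts in LX2 with HCCLM3, against 85983, 79251 and 85081 alone, with overlapping groups, and did not pass (log2 -0.04 ± 0.02, edgeR adjusted p = 0.124). In HCCLM3 the same gene had 189, 214 and 152 counts with LX2, against 35, 33 and 79 alone. The HCCLM3 groups did not overlap, and the rise was 3.62-fold (log2 1.85 ± 0.43, edgeR adjusted p = 0.0242). That call was lost without any of the 3 co-cultured libraries and without replicate 1 or 2 alone, with an edgeR adjusted p of 0.0566 to 0.0722. Without replicate 3 alone the log2 fold change was 2.45. The COL7A1 rise in HCCLM3 was 0.158% of the level in LX2 alone, beside a median of 0.143% and a highest value of 0.942% for 37 genes outside the set with at least 20 FPKM in LX2 alone and under 0.1 FPKM in HCCLM3 alone. How much of it came from LX2 transcripts was not tested.

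COL12A1 had 21354, 22580 and 22638 counts in LX2 with HCCLM3, against 28456, 27529 and 29322 alone. COL16A1, a fibril-associated collagen, had 1564, 1707 and 1671 counts in LX2 with HCCLM3, against 2617, 2447 and 2322 alone. Neither gene's groups overlapped, and both fell, COL12A1 by 0.46 ± 0.02 on the log2 scale (edgeR adjusted p = 4.54e-05) and COL16A1 by 0.69 ± 0.06 (edgeR adjusted p = 0.000458). COL8A1, a short-chain network collagen, had 7349, 6453 and 8467 counts in LX2 with HCCLM3, against 5142, 1344 and 1009 alone. Replicate 1 alone stood apart from the other libraries alone but still below the co-cultured ones, and COL8A1 did not pass (1.48 ± 0.60, edgeR adjusted p = 0.111) unless that library was left out (2.53, edgeR adjusted p = 0.000952). In HCCLM3, COL16A1 had 125 to 161 counts with LX2 and 147 to 191 alone and did not pass (-0.34 ± 0.23, edgeR adjusted p = 0.337), and COL8A1 had at most 19 counts in any library.

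Lysyl oxidases are copper enzymes that oxidise lysine side chains so that collagen and elastin crosslink. All 4 of the set passed the test of the difference between lines, beside 21.2% of all genes tested. The calls of LOXL1 and LOXL4 depended on single libraries. Their summed level was 38.2 ± 2.91 FPKM in HCCLM3 with LX2 and 25.3 ± 0.738 FPKM in HCCLM3 alone, and 95.7 ± 2.42 FPKM in LX2 with HCCLM3 and 168 ± 6.92 FPKM in LX2 alone (SD, n = 3 each). The test of the difference passed for LOX (2.34 ± 0.17, edgeR adjusted p = 7.01e-06), LOXL1 (0.81 ± 0.22, edgeR adjusted p = 0.0226), LOXL2 (0.64 ± 0.10, edgeR adjusted p = 0.000898) and LOXL4 (1.58 ± 0.44, edgeR adjusted p = 0.0266), each more positive in HCCLM3. The LOXL1 call was lost without replicate 2 of HCCLM3 with LX2 or replicate 1 or 3 of LX2 alone (edgeR adjusted p = 0.0501 to 0.0623). The LOXL4 call was lost without replicate 1 of either HCCLM3 group, replicate 1 or 2 of LX2 with HCCLM3, or replicate 1 or 2 of LX2 alone (edgeR adjusted p = 0.0541 to 0.0655).

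LOX, whose promoter is shown above, had 563, 650 and 679 counts in HCCLM3 with LX2, against 81, 113 and 104 alone. The groups were widely separated, and the rise was 6.19-fold (log2 2.63 ± 0.20, edgeR adjusted p = 0.000716), the smallest adjusted p of the set in this line. In LX2, where LOX was far more abundant, it had 12012, 13403 and 11080 counts with HCCLM3, against 9487, 9152 and 9734 alone. These groups did not overlap either, but the rise was small (1.20-fold, log2 0.26 ± 0.08, edgeR adjusted p = 0.0456). It did not pass without replicate 1 or 2 of LX2 with HCCLM3 or without any library of LX2 alone (edgeR adjusted p = 0.104 to 0.128), nor with no filter on low counts (edgeR adjusted p = 0.0737). The HCCLM3 rise of LOX was 5.43% of the level in LX2 alone, above the highest value of the 37 comparison genes. LOX itself, at 0.204 FPKM in HCCLM3 alone, was above the limit of 0.1 FPKM set for those genes. How much of that rise came from LX2 transcripts was not tested. LOX overlaps SRFBP1 on the opposite strand, and the sources used here do not say whether counting used strand. SRFBP1 had 830, 936 and 891 counts in HCCLM3 with LX2, against 1083, 1371 and 1297 alone, a change in the other direction (-0.53, edgeR adjusted p = 0.0331).

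LOXL1, the family member tied to elastic fibres, was the leading lysyl oxidase of HCCLM3. It had 8194, 9535 and 8154 counts in HCCLM3 with LX2, against 5862, 5331 and 4791 alone, without overlap (1.59-fold higher, log2 0.67 ± 0.08, edgeR adjusted p = 0.00283). In LX2 it had 140 to 216 counts with HCCLM3 and 145 to 225 alone and did not pass (-0.18 ± 0.22, edgeR adjusted p = 0.591). The antisense gene LOXL1-AS1 had 549, 520 and 583 counts in HCCLM3 with LX2, against 312, 408 and 509 alone, and did not pass (0.39, edgeR adjusted p = 0.279).

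LOXL2, which is known in tumours for collagen crosslinking, was the most abundant matrix gene of LX2 alone. It had 30249, 33075 and 33903 counts in LX2 with HCCLM3, against 70539, 60786 and 64924 alone. Every co-cultured library was well below the libraries alone, and the fall was 2.17-fold (log2 -1.12 ± 0.04, edgeR adjusted p = 8.33e-06). In HCCLM3 it had 2888, 3702 and 3165 counts with LX2, against 4688, 4280 and 4038 alone, also without overlap. That fall (log2 -0.45 ± 0.09, edgeR adjusted p = 0.019) was lost without replicate 1 or 3 of either HCCLM3 group (edgeR adjusted p = 0.0521 to 0.0735) and with library totals in place of the TMM factors that even out library composition (edgeR adjusted p = 0.0972), as it was in limma on FPKM (adjusted p = 0.0875 to 0.122). LOXL2 overlaps ENTPD4 on the same strand, whose counts were 47.6% of those of LOXL2 in HCCLM3 and 8.62% in LX2.

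LOXL4, the fourth lysyl oxidase of the set, had 146, 128 and 238 counts in LX2 with HCCLM3, against 441, 399 and 391 alone. The groups did not overlap, and it fell 2.60-fold (log2 -1.38 ± 0.23, edgeR adjusted p = 0.00524). In HCCLM3 it had 63 to 121 counts with LX2 and 60 to 105 alone (0.23 ± 0.35, edgeR adjusted p = 0.693).

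Proteoglycans were sparse in LX2 and were led by LUM and VCAN in HCCLM3. LUM encodes lumican, which regulates fibril spacing, and had 61, 46 and 65 counts in LX2 with HCCLM3, against 240, 174 and 213 alone. The groups were clearly apart, and LUM fell 3.90-fold (log2 -1.96 ± 0.20, edgeR adjusted p = 0.000719). In HCCLM3 it had 1994, 1639 and 2285 counts with LX2, against 2798, 2921 and 2062 alone, with overlapping groups, and did not pass (-0.41 ± 0.16, edgeR adjusted p = 0.12). The LUM difference between lines was 1.52 (edgeR adjusted p = 0.00173; 0.0759 in limma on log2(FPKM + 1)). VCAN encodes versican, a large hyaluronan-binding proteoglycan, and had 118, 61 and 185 counts in LX2 with HCCLM3, against 8, 0 and 4 alone. All co-cultured libraries were higher (log2 4.78 ± 0.83, edgeR adjusted p = 0.00616; 5.72 without replicate 1 alone), yet VCAN stayed at 0.101 ± 0.0501 FPKM. That rise was 3.58% of the level in HCCLM3 alone, above the highest of the 57 comparison genes, and the share of HCCLM3 transcripts in it was not tested. In HCCLM3 VCAN had 4651, 3202 and 3744 counts with LX2, against 3500, 3364 and 3712 alone (0.11 ± 0.17, edgeR adjusted p = 0.704). The VCAN difference of -4.69 (edgeR adjusted p = 0.000878) was not past the test in limma on log2(FPKM + 0.1) (adjusted p = 0.118), and its direction turned in limma on log2(FPKM + 1) (0.059, adjusted p = 0.815).

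DCN, the gene of decorin, had 55, 113 and 291 counts in HCCLM3 with LX2, against 96, 119 and 130 alone, and did not pass (0.37 ± 0.57, edgeR adjusted p = 0.688). In LX2 it had 10, 46 and 0 counts with HCCLM3, against 4, 0 and 0 alone, too few to be tested. BGN had 4, 0 and 0 counts in LX2 with HCCLM3 and 0 in every library alone. BGN overlaps HAUS7 on the opposite strand, which had many more counts in both lines.

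Elastic fibres consist of an elastin core on a microfibril scaffold, and FBN1 and FBLN1 stood far above elastin in both lines. FBLN1, a fibulin of the matrix and basement membranes, had 11643, 9620 and 9994 counts in HCCLM3 with LX2, against 8166, 6769 and 5842 alone. In LX2 it had 13103, 13919 and 14695 counts with HCCLM3, against 18729, 18062 and 19334 alone. Neither pair of groups overlapped: FBLN1 rose in HCCLM3 (log2 0.57 ± 0.13, edgeR adjusted p = 0.0236) and fell in LX2 (-0.53 ± 0.03, edgeR adjusted p = 4.54e-05), a difference of 1.07 ± 0.15 (edgeR adjusted p = 0.000442). The HCCLM3 call was lost without replicate 1 or 3 of HCCLM3 with LX2 and without replicate 2 or 3 alone (edgeR adjusted p = 0.0646 to 0.0820).

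MFAP2, a microfibril glycoprotein, was an LX2 gene, with 6824, 7100 and 7145 counts in LX2 with HCCLM3, against 9747, 8433 and 9459 alone. It fell without overlap (1.41-fold, log2 -0.50 ± 0.04, edgeR adjusted p = 0.000316). HCCLM3 had 13, 11 and 11 counts with LX2, against 0, 0 and 4 alone, which did not pass (2.95 ± 1.29, edgeR adjusted p = 0.151) and amounted to 0.106% of the level in LX2 alone. FBN1 encodes fibrillin-1, the main microfibril protein, and had 15558, 15463 and 16221 counts in LX2 with HCCLM3, against 10897, 10598 and 10526 alone. It rose 1.37-fold (log2 0.46 ± 0.04, edgeR adjusted p = 0.000312), again without overlap. In HCCLM3 FBN1 had 2112 to 3281 counts with LX2 and 1294 to 2724 alone and did not pass (0.35 ± 0.28, edgeR adjusted p = 0.414).

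Elastin itself (ELN) had 0, 39 and 68 counts in HCCLM3 with LX2, against 20, 33 and 47 alone (0.04 ± 1.19, edgeR adjusted p = 0.987), and 8, 0 and 0 counts in LX2 with HCCLM3, against 0 in every library alone. FBLN5, which helps assemble elastin, had 787 to 935 counts in LX2 with HCCLM3 and 654 to 798 alone (0.14 ± 0.11, edgeR adjusted p = 0.37). In HCCLM3 it had 8 to 16 counts with LX2, against 8, 0 and 32 alone. EMILIN1, found where elastin meets microfibrils, did not pass in either line, with 73 to 94 counts in HCCLM3 with LX2 and 60 to 100 in HCCLM3 alone, and 79 to 101 in LX2 with HCCLM3 and 57 to 129 in LX2 alone. MFAP5 had 0, 8 and 0 counts in HCCLM3 with LX2 and 0 in every library alone.

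FN1 was the most abundant matrix gene of HCCLM3 and rose in both lines. It had 272789, 361065 and 321153 counts in HCCLM3 with LX2, against 112058, 154676 and 129329 alone, and 31272, 32354 and 34257 counts in LX2 with HCCLM3, against 18837, 16978 and 18116 alone. No co-cultured library overlapped those alone in either line. The rise was 2.36-fold in HCCLM3 (log2 1.24 ± 0.14, edgeR adjusted p = 0.00221) and 1.69-fold in LX2 (0.75 ± 0.03, edgeR adjusted p = 1.18e-05). In FPKM, HCCLM3 gained 144, beside a level of 13.7 in LX2 alone. LX2 gained 9.87, which was 11.3% of the level in HCCLM3 alone and above the highest of the 57 comparison genes. Those genes were under 0.1 FPKM in LX2 alone, which FN1 was not, so they are no like comparison for it. Levels were not tested between lines, nor was the share of partner transcripts in either gain.

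THBS1 encodes thrombospondin-1, a matricellular protein that can activate latent TGF-beta. It had 34394, 41395 and 36534 counts in HCCLM3 with LX2, against 18635, 25263 and 19859 alone. In LX2 it had 5939, 6524 and 6249 counts with HCCLM3, against 9199, 8638 and 9026 alone. Both pairs of groups were apart, in opposite directions: THBS1 rose 1.73-fold in HCCLM3 (log2 0.79 ± 0.12, edgeR adjusted p = 0.00595) and fell 1.54-fold in LX2 (-0.63 ± 0.04, edgeR adjusted p = 6.24e-05). The difference was 1.38 ± 0.13 (edgeR adjusted p = 3.47e-05). THBS2, a related thrombospondin, had 0, 23 and 30 counts in HCCLM3 with LX2, against 0, 0 and 10 alone, and did not pass (2.26 ± 1.79, edgeR adjusted p = 0.419).

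TNC, the gene of tenascin-C, which is laid down in wounds and tumour stroma, showed the largest fold fall of the set in LX2. It had 55, 130 and 122 counts in LX2 with HCCLM3, against 831, 889 and 994 alone. The highest co-cultured library was far below the lowest library alone, and TNC fell 9.58-fold (log2 -3.26 ± 0.30, edgeR adjusted p = 0.00042). In HCCLM3 it had 182, 389 and 486 counts with LX2, against 112, 64 and 237 alone, with overlapping groups (1.28 ± 0.57, edgeR adjusted p = 0.155; 0.0498 without replicate 3 alone). The changes differed by 4.51 ± 0.73 (edgeR adjusted p = 0.00132). TGFBI, an integrin-binding matrix protein, was high in both lines without passing: 13667 to 15782 counts in HCCLM3 with LX2 and 12861 to 15653 alone, and 37750 to 50403 in LX2 with HCCLM3 and 36823 to 39505 alone. In LX2 TGFBI passed only without replicate 1 of LX2 with HCCLM3 (edgeR adjusted p = 0.00424). SPARC had 0, 4 and 0 counts in LX2 with HCCLM3 and none alone, and POSTN had 0, 8 and 0 in LX2 with HCCLM3 and none alone. In HCCLM3 POSTN had 0, 4 and 12 counts with LX2, against 0, 0 and 4 alone.

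**Figure D4:**
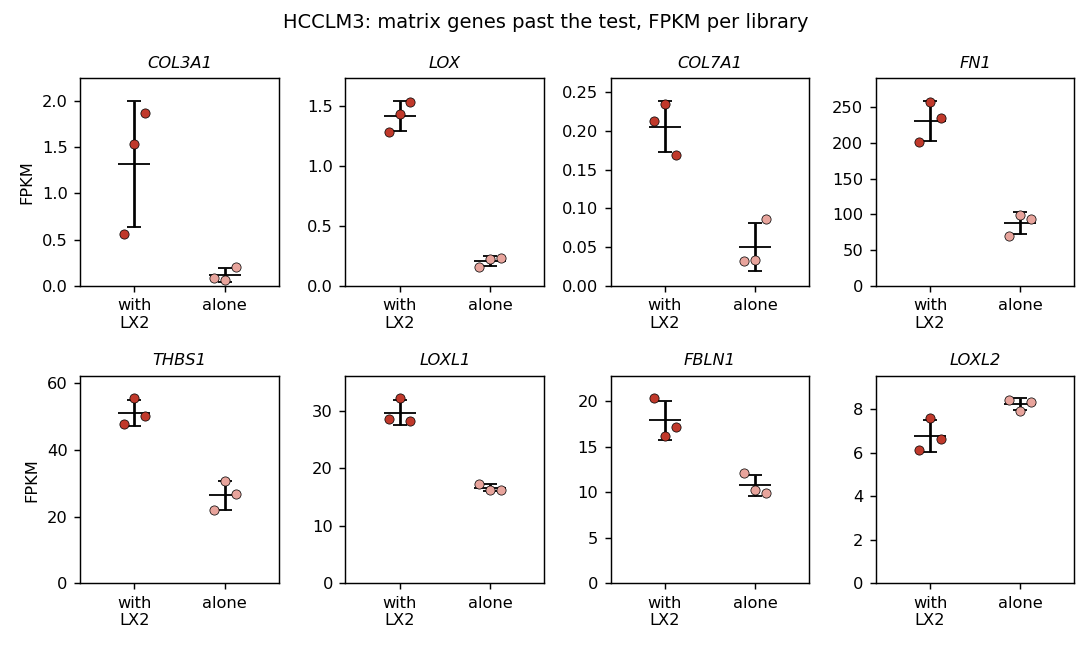
FPKM in each HCCLM3 library, with LX2 (left) and alone (right), for the 8 genes past the test, with mean and SD (n = 3 each) and axes from 0. All co-cultured libraries lie above those alone for 7 genes, and below them for LOXL2.

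**Figure D5:**
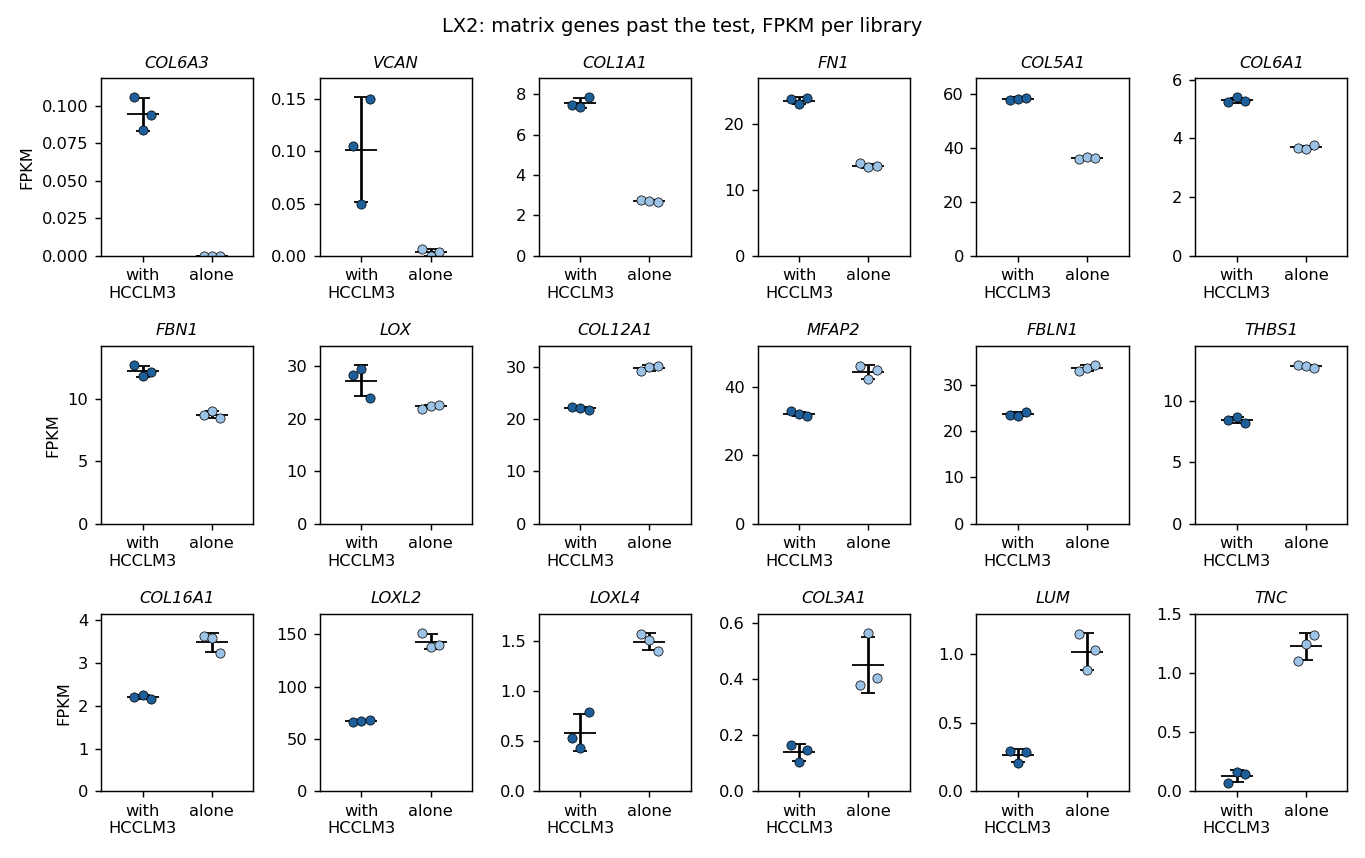
FPKM in each LX2 library, with HCCLM3 (left) and alone (right), for the 18 genes past the test, ordered by log2 fold change, with mean and SD (n = 3 each) and axes from 0. The 8 genes from COL6A3 to LOX are higher in co-culture, and the 10 from COL12A1 to TNC are lower.

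Of the genes that fold and modify collagen chains in the endoplasmic reticulum, 11 rose and 2 fell of 22 tested in LX2 (median log2 fold change 0.18), beside 15.4% up and 16.6% down over all genes. In HCCLM3 3 rose and 0 fell of 20 tested (median 0.05), which is 15%, below the 21.7% called over all genes. In LX2 P4HA1, a prolyl 4-hydroxylase subunit, had 12326, 12492 and 13194 counts with HCCLM3, against 6393, 6056 and 6471 alone (0.90 ± 0.03, edgeR adjusted p = 8.59e-06). P3H2, a prolyl 3-hydroxylase, rose by 0.84 ± 0.03 (edgeR adjusted p = 7.7e-06), whereas PLOD2, a lysyl hydroxylase, had 18319, 17994 and 18126 counts with HCCLM3, against 26394, 25949 and 26800 alone (-0.64 ± 0.04, edgeR adjusted p = 0.0001). In HCCLM3 the 3 rises were COLGALT2, a collagen galactosyltransferase (1.97 ± 0.31, edgeR adjusted p = 0.00693), CREB3L1, a transcription factor of collagen secretion (0.47 ± 0.08, edgeR adjusted p = 0.00818), and SERPINH1, the collagen chaperone HSP47 (0.40 ± 0.11, edgeR adjusted p = 0.0467).

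Among the genes that trim procollagen ends, all 3 tested in HCCLM3 passed, 2 up and 1 down, and 2 of 7 fell in LX2, beside 21.7% and 31.9% called over all genes. PCOLCE, an enhancer of the C-proteinase, had 508, 538 and 565 counts in HCCLM3 with LX2, against 137, 77 and 61 alone, and 18229, 19847 and 19672 counts in LX2 with HCCLM3, against 23354, 21849 and 23845 alone. It rose in HCCLM3 (2.53 ± 0.29, edgeR adjusted p = 0.0024) and fell in LX2 (-0.36 ± 0.03, edgeR adjusted p = 0.000152). BMP1, the C-proteinase itself, fell in HCCLM3 (-0.47 ± 0.08, edgeR adjusted p = 0.00916), and PCOLCE2 rose there (0.55 ± 0.13, edgeR adjusted p = 0.0262). TLL1, a BMP1-like proteinase, fell in LX2 (-0.18 ± 0.04, edgeR adjusted p = 0.0192).

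Of fibrillar collagens outside the set, 0 of 3 tested passed in HCCLM3 and 1 rose and 1 fell of 4 in LX2, beside 21.7% and 31.9% called over all genes. COL5A3, a further type V chain, had 706, 743 and 650 counts in LX2 with HCCLM3, against 0, 0 and 4 alone (8.81 ± 0.59, edgeR adjusted p = 0.000113). The co-cultured LX2 level was 1.28 FPKM, beside 0.0445 FPKM in HCCLM3 alone, and the share of HCCLM3 transcripts in it was not tested. COL27A1 fell in LX2 (-0.36 ± 0.06, edgeR adjusted p = 0.00538). Of the fibril-associated and other collagens, 0 rose and 1 fell of 5 tested in HCCLM3, and 2 rose and 2 fell of 4 in LX2, the HCCLM3 share being near that of all genes. COL17A1, a hemidesmosome collagen, had 1125, 1597 and 1345 counts in HCCLM3 with LX2, against 4096, 4428 and 3450 alone (-1.59 ± 0.13, edgeR adjusted p = 0.000847). In LX2 it rose to 53, 37 and 38 counts with HCCLM3, against 4, 1 and 2 alone (edgeR adjusted p = 0.00202). These LX2 counts were far below those of HCCLM3 alone, and the share of HCCLM3 transcripts in the rise was not tested. COL25A1, with 371, 373 and 286 counts in LX2 with HCCLM3 against 656, 618 and 647 alone (edgeR adjusted p = 0.00282), and COL14A1 (-4.02 ± 1.08, edgeR adjusted p = 0.0321) fell in LX2.

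Of the partners of elastic fibres, 2 rose and 3 fell of 10 tested in HCCLM3 and 3 rose and 3 fell of 14 in LX2, beside 21.7% and 31.9% called over all genes. LTBP1, which tethers latent TGF-beta to microfibrils, had 8975, 9610 and 9975 counts in LX2 with HCCLM3, against 4425, 3785 and 4485 alone (1.07 ± 0.05, edgeR adjusted p = 2.99e-05), and FBN2, a second fibrillin, rose by 0.41 ± 0.03 (edgeR adjusted p = 0.000128). EFEMP1, a fibulin, rose in HCCLM3 (1.08 ± 0.17, edgeR adjusted p = 0.00641), and MFAP3 fell there (-1.95 ± 0.32, edgeR adjusted p = 0.00827). MFAP1, listed for its name although it is known as a splicing factor, fell in HCCLM3 (-0.65 ± 0.10, edgeR adjusted p = 0.00623) and in LX2 (-0.45 ± 0.04, edgeR adjusted p = 0.000379).

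Among small leucine-rich proteoglycans and other matrix partners, 3 rose and 3 fell of 12 tested in HCCLM3, and 5 rose and 5 fell of 15 in LX2, beside 21.7% and 31.9% called over all genes. The matricellular gene CCN2 fell in HCCLM3, with 1695, 2209 and 1938 counts with LX2, against 4078, 4223 and 3554 alone (-1.05 ± 0.10, edgeR adjusted p = 0.00126), and in LX2 (-0.57 ± 0.04, edgeR adjusted p = 0.000124). Its relative CCN1 fell in LX2 (-1.13 ± 0.06, edgeR adjusted p = 3.08e-05), as did SMOC1, a SPARC-related protein (-0.42 ± 0.03, edgeR adjusted p = 6.92e-05). THBS3, a thrombospondin, had 3022, 3061 and 3144 counts in HCCLM3 with LX2, against 1086, 1203 and 1267 alone (1.34 ± 0.12, edgeR adjusted p = 0.00104), and TNXB, a tenascin, fell there (-1.89 ± 0.16, edgeR adjusted p = 0.00102).

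Among receptors for collagen and fibronectin, 9 fell and 3 rose of 20 tested in LX2 (median log2 fold change -0.60), beside 16.6% down and 15.4% up over all genes. In HCCLM3 2 fell and 3 rose of 20 (median 0.22), which is 25%, near the 21.7% called over all genes. The integrin subunit ITGAV had 10728, 11518 and 11862 counts in LX2 with HCCLM3, against 18715, 18573 and 18469 alone (-0.82 ± 0.03, edgeR adjusted p = 1.32e-05). MRC2, a collagen uptake receptor (-0.69 ± 0.02, edgeR adjusted p = 6.32e-06), and ITGB5, an integrin subunit (-0.74 ± 0.03, edgeR adjusted p = 1.49e-05), also fell in LX2. ITGB5 fell in HCCLM3 as well (-0.42 ± 0.07, edgeR adjusted p = 0.00983), with the syndecan SDC4 (-0.54 ± 0.07, edgeR adjusted p = 0.00355), while the collagen receptor kinase DDR1 rose (0.69 ± 0.13, edgeR adjusted p = 0.0121).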

How the data were processed

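The authors deposited 1 table per line with a whole-number count and an FPKM value for each gene and library, per the file headers. Bowtie 0.12.2, HISAT2 2.0 and StringTie 1.3.0 are named, with no role, per the submitters' processing notes, beside the mouse build mm8, although the gene identifiers are human. Of 58394 identifiers found in GENCODE release 29, 90.6% had the same start or end, so GRCh38 was used for positions. The counts were taken as deposited. FPKM were used for levels. Within each line, co-culture was compared with culture alone by edgeR 4.0.16 (R 4.3.3; quasi-likelihood test, TMM factors, filterByExpr with a minimum count of 10 and minimum total of 15), with Benjamini-Hochberg adjustment over all genes tested. The difference between lines was an interaction term in 1 fit over all 12 libraries. SE are log2 fold changes divided by the square root of the test's F. Alternatives used DESeq2 1.42.0 and limma 3.58.1 on log2(FPKM + 1) or log2(FPKM + 0.1), other filters and scaling, a replicate block, counts divided by 4 (added after seeing the data), and leaving out each library. Libraries were called uneven where the highest was at least 3 times the lowest in CPM (counts scaled to the library total), with at least 20 counts. Genes were named if they passed the test, had 0 counts in a group or were uneven, and from each pathway list up to 3 genes per line with the smallest p. The members and lists were chosen with earlier results of these data known. The test was checked on simulated data. Protein sequences were not used here.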

Additional observations from a re-analysis of the deposited data

Results flagged for a closer look

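The co-culture change differed between HCCLM3 and LX2, by the interaction term in edgeR, for 14 genes. As the change in HCCLM3 minus the change in LX2 on the log2 scale, the fibrillar chain COL3A1 stood at 4.97, tenascin TNC at 4.51, the microfibril gene MFAP2 at 3.46, LOX at 2.34, COL7A1 at 1.88, LOXL4 at 1.58, LUM at 1.52, THBS1 at 1.38, FBLN1 at 1.07, LOXL1 at 0.81 and LOXL2 at 0.64. The other 3 were more positive in LX2: COL6A3 at -10.62, VCAN at -4.69 and COL6A1 at -0.76. The COL6A3 value depends on the prior count of the fit, since LX2 alone had no counts, and is no bound. The MFAP2 value rests on very few counts in HCCLM3, as given above.

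Leaving out replicate 3 of HCCLM3 alone moved COL3A1 to 5.57, COL7A1 to 2.47, TNC to 5.24 and MFAP2 to 7.16. Without that library HCCLM3 alone had no MFAP2 counts, so 7.16 depends on the prior count of the fit and is no bound. Leaving out replicate 1 of LX2 alone moved VCAN to -5.63. LOXL1 did not pass without replicate 2 of HCCLM3 with LX2 or without replicate 1 or 3 of LX2 alone (edgeR adjusted p = 0.0501 to 0.0623). LOXL4 did not pass without replicate 1 of either HCCLM3 group, replicate 1 or 2 of LX2 with HCCLM3, or replicate 1 or 2 of LX2 alone (edgeR adjusted p = 0.0541 to 0.0655). In limma on log2(FPKM + 1) COL6A3, LUM and VCAN did not pass (adjusted p = 0.0888, 0.0759 and 0.815), and the direction of VCAN turned (0.059).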

How the results depend on the processing

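The calls were recounted under 8 planned settings, with counts divided by 4 (chosen after seeing the data), and with each library left out. Of the members, 8 passed in HCCLM3, and 5 to 9 when a library was left out, with the 5 without replicate 3 of HCCLM3 with LX2; in LX2 18 passed (17 to 18) and for the difference 14 (12 to 15). Of all genes, 3924 passed in HCCLM3, and 1918 to 2928 when a library was left out. With library totals in place of TMM, the HCCLM3 calls were 2977 up and 1039 down, against 1829 up and 2095 down, and the median of all genes was 0.21 in place of 0.03. Over all genes, deviations of libraries with the same replicate number were hardly correlated (0.02, 0.05 and 0.02 in HCCLM3, -0.04, 0.01 and -0.04 in LX2). These values cannot tell whether libraries were paired, since pairing could act on few genes. For COL1A1, COL1A2, COL3A1 and COL5A1, among other members, replicate 3 was the highest of both HCCLM3 groups. With the replicate block 9, 18 and 14 members passed, and 3315, 4795 and 4471 of all genes. The block lost COL7A1 in HCCLM3 (adjusted p = 0.0528), LOX in LX2 (0.0776) and LOXL1 and LOXL4 in the difference (0.0771 and 0.0627), and gained COL5A1 and COL6A3 in HCCLM3 (0.0217 and 0.0332) and COL6A2 in LX2 (0.0328).

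Directions reversed only for HCCLM3 genes that had not passed, EMILIN1 in LX2 and VCAN in the difference, and the cause was not tested. TGFBI in HCCLM3 was 0.17 with library totals, 0.023 with a mean of at least 50 counts, 0.15, 0.16 and 0.15 in limma (pseudocount 1, 0.1, and 1 unfiltered) and 0.015 with counts divided by 4. With the block ELN was -0.76 and FBLN5 0.60 in HCCLM3. EMILIN1 in LX2 was 0.035 in limma with pseudocount 0.1 and 0.035 with the block. VCAN in the difference was 0.059 in limma with pseudocount 1, filtered or not. Leaving out a library in HCCLM3 gave -0.012 to 0.45 for LOXL4, -0.076 to 0.24 for VCAN, -0.049 to 0.030 for TGFBI, -0.076 to 0.17 for COL6A2, -0.87 to 0.62 for ELN, -0.15 to 0.31 for EMILIN1, -0.19 to 5.08 for COL1A1, -0.24 to 11.61 for COL1A2, -1.24 to 1.90 for COL12A1, -0.49 to 1.56 for SPARC, -0.51 to 0.76 for DCN and -0.84 to 1.56 for FBLN5, and in LX2 -0.30 to 0.40 for EMILIN1. The 11.61 of COL1A2 comes from a fit with no COL1A2 counts in HCCLM3 alone, so it depends on the prior count. COL3A1 in HCCLM3 did not pass in unfiltered limma (adjusted p = 0.0539). VCAN in LX2 did not pass there either (adjusted p = 0.0548). In all, single-gene calls were lost 44 times and gained 12 times, directions turned 34 times, and 1031 values kept both. Genes with too few counts in both groups were not tested.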
